A study of Mus musculus with 24 samples.

Results

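Sites of moderately increased chromatin accessibility that lie close together along the mouse genome were examined in cultured periosteal cells carrying an inducible active form of YAP. They numbered 617 sites in 111 dense clusters, out of 30509 sites that the authors' deposited table of differential accessibility lists for these cells. A member site lies on an autosome, has a difference of Dox minus untreated above 0 and at most 1 on the log2 scale and a mean log2 concentration below 9.5, where the concentration is DiffBind's measure of normalised reads over a site. Such moderate sites numbered 19615. They were joined where the gap to the next was at most 12.5 kb, and joined groups of at least 5 sites were kept, which left 3.15% of the moderate sites and 2.02% of all listed sites. The members were thus chosen by their accessibility values, which are given below as a description, without a test.

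Cells of the periosteum, the membrane around bone that feeds fracture repair, were grown as primary cells from C57BL6 wild-type mice and from mice with the alleles B6.C-tg(CMV-Cre)1Cgn/J, the transgene tetO-YAPS127A and, at ROSA26, Gt(ROSA)26Sortm1(rtTA,EGFP)Nagy/J, called YAPCA here. In YAPCA cells the broadly active CMV-Cre switches on the doxycycline-responsive activator rtTA and EGFP at ROSA26, and doxycycline (Dox) then induces YAP S127A, in which an inhibitory phosphorylation site of the Hippo kinases is lost. The untreated YAPCA cells carry the same alleles, Dox was given at 1 µM in water, and the controls received no vehicle. RNA-seq and ATAC-seq, in which a transposase marks open chromatin, gave 8 groups of 3 samples, called technical replicates in the labels, so that p-values measure only the spread between these samples. The results below rest on the YAPCA groups, and the wild-type groups with and without Dox were read only through their short lists of changed sites and genes.

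YAP does not bind DNA itself. It is carried to chromatin mainly by the TEAD transcription factors, often at distal enhancers that also hold AP-1 motifs, and it promotes transcription of genes of growth, adhesion and the cytoskeleton. When the Hippo kinases phosphorylate YAP it is kept in the cytoplasm. Enhancers often occur in series along the neighbourhood of a gene, and an open site is not by itself evidence that a factor binds there or that the nearest gene is its target.

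Of the 617 member sites, 10 covered bases directly upstream of a start listed for a coding gene in the RefSeq GRCm38.p6 promoter table, which holds starts for 17491 of 21896 coding genes. The RNA of their genes rose in 6 cases, fell in 1, did not pass in 2 and was too low to test in 1. Over all 13477 tested genes 14.3% rose and 13.5% fell, and the count of these few genes was not tested against those shares. The sequences of 6 are shown: Bdnf, Syde2 and Pik3cb are those with the largest RNA rises of the 10, Gbe1 fell, Ulk3 did not pass and holds the letters of a TEAD motif, and Cpa4, whose RNA was too low to test, holds those of TEAD and AP-1 motifs. The stretch shown is the part of the site within 250 bases before that start, 5′ to 3′ along the gene. A listed start can lie inside the annotated gene body. The stretches at Bdnf, Syde2 and Ulk3 thus lie within the body of their gene, and that at Pik3cb lies partly within it. Capitals mark GGAATG (TEAD), TGANTCA (AP-1) and TGTGGT (RUNX) on either strand.
Cpa4, chr6:30568119-30568368, plus strand: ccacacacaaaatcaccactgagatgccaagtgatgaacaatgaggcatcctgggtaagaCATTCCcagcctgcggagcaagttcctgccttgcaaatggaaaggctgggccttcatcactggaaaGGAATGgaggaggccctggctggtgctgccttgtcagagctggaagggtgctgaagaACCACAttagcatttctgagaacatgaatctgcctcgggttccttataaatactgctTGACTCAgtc
Bdnf, chr2:109692241-109692435, plus strand: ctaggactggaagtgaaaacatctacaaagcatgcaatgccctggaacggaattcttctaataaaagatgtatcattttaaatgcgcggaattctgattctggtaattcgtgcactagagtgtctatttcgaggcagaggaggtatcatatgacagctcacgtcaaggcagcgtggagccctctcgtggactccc
Syde2, chr3:145987763-145987869, plus strand: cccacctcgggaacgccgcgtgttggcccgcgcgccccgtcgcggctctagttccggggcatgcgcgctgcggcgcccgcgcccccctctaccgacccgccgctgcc
Pik3cb, chr9:99140212-99140461, minus strand: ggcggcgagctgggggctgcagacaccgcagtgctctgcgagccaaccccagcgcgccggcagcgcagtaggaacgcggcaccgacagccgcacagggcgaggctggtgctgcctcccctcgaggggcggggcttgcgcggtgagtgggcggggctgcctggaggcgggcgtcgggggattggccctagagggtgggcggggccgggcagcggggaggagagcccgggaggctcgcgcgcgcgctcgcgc
Gbe1, chr16:70313851-70313948, plus strand: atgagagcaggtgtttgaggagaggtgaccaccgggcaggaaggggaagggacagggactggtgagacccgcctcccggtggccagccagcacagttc
Ulk3, chr9:57589202-57589451, plus strand: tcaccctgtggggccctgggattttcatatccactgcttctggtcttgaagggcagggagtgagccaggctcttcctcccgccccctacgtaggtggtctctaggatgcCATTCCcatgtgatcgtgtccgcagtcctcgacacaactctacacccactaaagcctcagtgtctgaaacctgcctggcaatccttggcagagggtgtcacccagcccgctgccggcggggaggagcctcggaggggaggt

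The Cpa4 stretch, before the gene of a secreted carboxypeptidase, held 2 TEAD matches, 1 AP-1 match and 1 RUNX match, and its site went from a log2 concentration of 8.46 without Dox to 9.0 with Dox. The stretches at Bdnf, Syde2, Pik3cb and Gbe1 held none of these letters, and their sites gained 0.46, 0.91, 0.38 and 0.31 on the log2 scale, while that at Ulk3, an autophagy-related kinase, gained 0.30. Of the 10 stretches, which were 93 to 250 bases long, 2 held a TEAD match, 1 an AP-1 match and 2 a RUNX match. The shares that follow are over full windows of 250 bases, so these counts are not directly comparable with them. Over the 250 bases upstream of all 21262 promoters in the table, 11.7% held GGAATG on either strand, 6.13% TGANTCA and 12.4% TGTGGT. For the 118 promoters of genes linked to the clusters the shares were 13.6%, 5.08% and 12.7%, and for CACGTG, the letters of an E-box, they were 9.32% against 6.63% of all promoters. These shares describe promoters and not the distal member sites, whose bases were not analysed here.

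The clusters were short and mostly of the smallest allowed size. Of the 111 clusters, 75 held 5 sites, 19 held 6, 9 held 7, 7 held 8 and 1 held 9. Their spans ran from 4821 to 52437 bp with a median of 21959 bp, and the sites themselves covered a median of 8.98% of a span. Gaps between neighbouring members had a median of 3717 bp. Of the 506 gaps, 106 were under 1000 bp and 52 were over 10000 bp. Among all moderate sites the median gap was 44786.5 bp, and 11387 sites stood alone.

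Within a cluster the deposited differences of the sites were unequal. In the authors' deposited table the median difference of the members was 0.55 on the log2 scale, from a median log2 concentration of 7.72 without Dox to one of 8.24 with Dox, and the 10th and 90th percentiles of the difference were 0.33 and 0.86. The SD of the difference was 0.192 over all members and 0.187 within clusters. In this value, which the rule itself limits to above 0 and at most 1, sites of the same cluster were almost as unlike as sites of different clusters. The group values have no replicate spread, and only sites with an FDR of at most 0.05 are listed. The part of noise and of that limit in these SDs was not tested. Moderate sites outside the clusters had a median difference of 0.56 and a median untreated concentration of 7.27. At the limits of the rule, the largest member difference was 1.00 and the next site outside had 1.01, the highest member concentration was 9.49 and the next 9.5, and the widest joined gap was 12498 bp and the next 12514 bp.

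**Figure D1:**
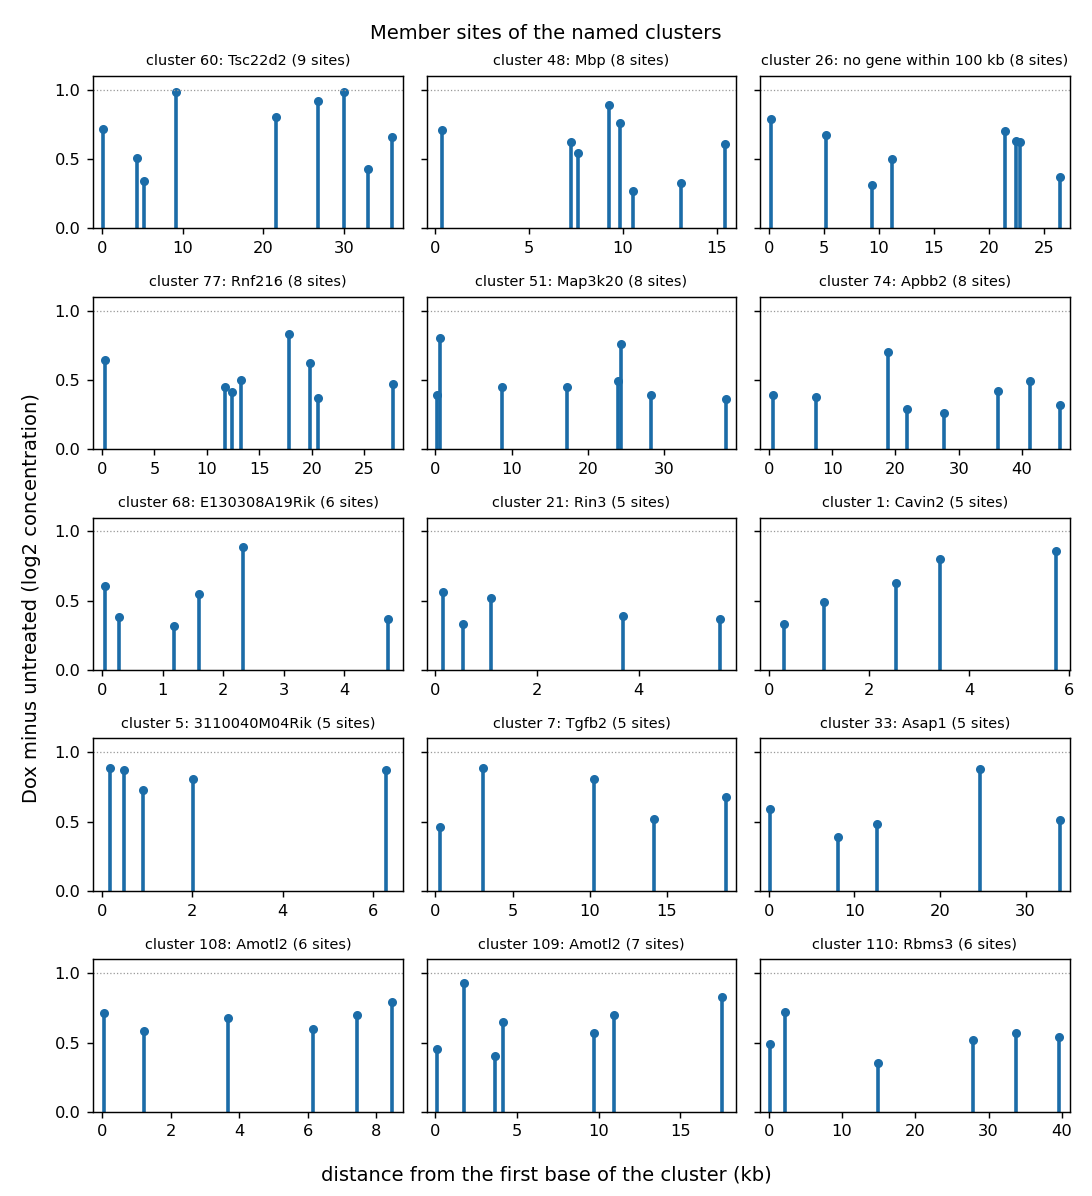
Member sites of 15 named clusters, placed by distance in kb from the first base of the cluster (x axis), with the difference in log2 concentration of Dox minus untreated (y axis, group values, no replicate error). Each stem is a site and the dotted line marks the upper limit of 1; the 9 sites near Tsc22d2 range from 0.34 to 0.98, while the 6 sites of the first Amotl2 cluster lie between 0.58 and 0.79.

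Width and position relative to genes were not used by the rule. Their median width was 327 bp against 340.5 bp for moderate sites outside clusters. A coding gene body held 48.3% of members and 51.7% of the others. Of sites that gained more than 1, 46.9% lay in a gene body, and of sites that lost accessibility 53.2%. These differences between classes were not tested.

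Clusters were found on 18 autosomes. Chromosome 9 held the most, with 14 clusters and 79 members, followed by chromosome 2 with 10 clusters and 54 members. The members made up 7.34% of the moderate sites on chromosome 9 and 3.68% on chromosome 2. Chromosome 19 held none. On 5 occasions a cluster began within 100 kb of the end of the one before, between E2f6 and Rock2, in Phldb2, near Irs2 and at both neighbouring pairs around Amotl2.

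Around the clusters the listed changes were nearly all gains. The spans held a further 22 sites that gained more than 1, in 19 clusters, and 37 gained sites of higher concentration, in 31 clusters. A single listed loss lay inside a span, at chr15:64500856-64501189 in the cluster between Asap1 and Adcy8, where the log2 concentration went from 6.89 to 6.18. The other 110 clusters held no lost site. Of the autosomal listed sites that are not moderate gains, 37.8% were losses over the genome. Within 12.5 kb of a member the share was 6.42%, or 7 of 109 sites. It was 10.8% near members of groups of 3 or 4 sites, 16.8% near groups of 2 and 26.5% near single moderate sites. Within 50 kb the shares were 12.4%, 19.9%, 26.2% and 34.4%. The order was thus the same at both distances. The sites are on the same list as the members and are no independent readout, so the shares carry no test.

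**Figure D2:**
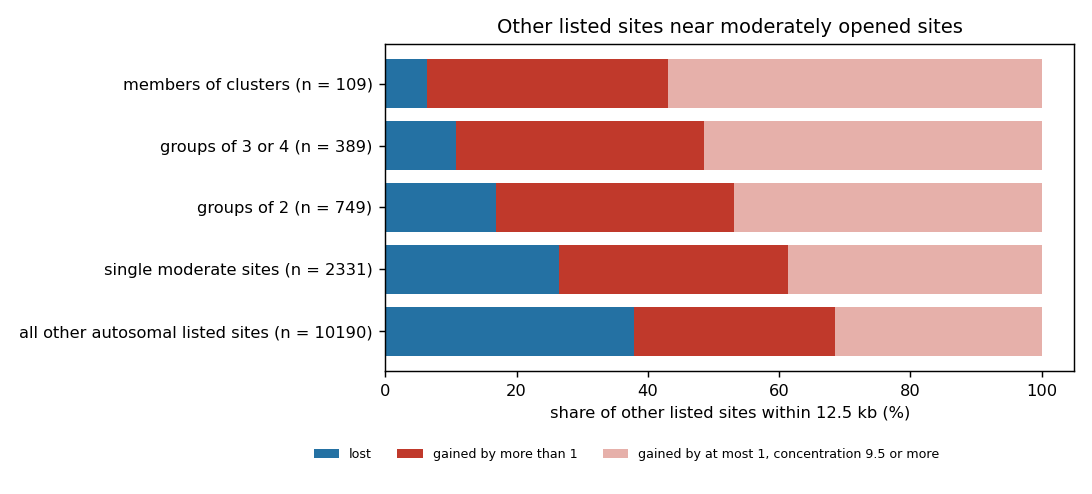
Make-up of the other listed sites within 12.5 kb of moderate sites, by size of the group (y axis, n = number of other sites), as shares in percent (x axis), with all other autosomal listed sites at the bottom. Losses make up 6.42% near cluster members and 37.8% of all such sites.

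The wild-type list, with and without Dox, was short. It held 42 sites, of which 36 gained and 6 lost accessibility, with log2 folds of -0.42 to 0.44 in the authors' deposited table. None overlapped a member site or a cluster span, and the nearest lay 3.497 kb from a span, while 4 of the 42 overlapped any listed YAPCA site. The spans cover only 2.48 Mb and the members are 2.02% of the listed YAPCA sites, so the lack of overlap carries no information. Among the 98 genes of the wild-type RNA list, 0 were linked to a cluster, but only 0.631% of all genes tested in YAPCA cells were, so that this count carries no information. Values of unlisted sites and genes of wild-type cells were not analysed here, so the wild-type response at the members has no size.

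The clusters were next read against RNA, which the rule did not use. Genes near the clusters rose in RNA far more often than they fell. A cluster was linked to each protein-coding gene whose body overlaps its span, as for 64 clusters, or otherwise to the nearest gene body within 100 kb, as for 33, and 14 clusters had none. This gave 98 genes, of which 97 were found in the RNA table and 85 passed a filter of 10 or more normalised read counts on average. The 12 that were found but not tested had means of at most 4.45, among them Foxa2, a transcription factor of endoderm, Cpa4 and the T-cell gene Cd28.

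Of the 85 tested genes, 48 rose (56.5%) and 4 fell (4.71%), by limma with Benjamini-Hochberg adjusted p below 0.05, where over all 13477 tested genes 14.3% rose, 13.5% fell and 27.9% were called in either direction. The median log2 change of the linked genes was 0.21, and that of all tested genes 0.0007. Changes were positive for 70 of the 85 genes, 82.4% against 50.2% of all genes, and 22 of the 33 genes that did not pass were among them. Groups did not overlap for 60 of the 85 genes (70.6%), 8 of them not passed, and for 41% of all tested genes. The 48 risen genes had log2 changes of 0.10 to 1.73 with a median of 0.40, where the median over all risen genes was 0.21. Of the 87 clusters with a tested gene, 51 had a risen gene and 4 a fallen one. The number that fell was 2 without untreated replicate 1 or 2 and 1 without Dox replicate 1.

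**Figure D3:**
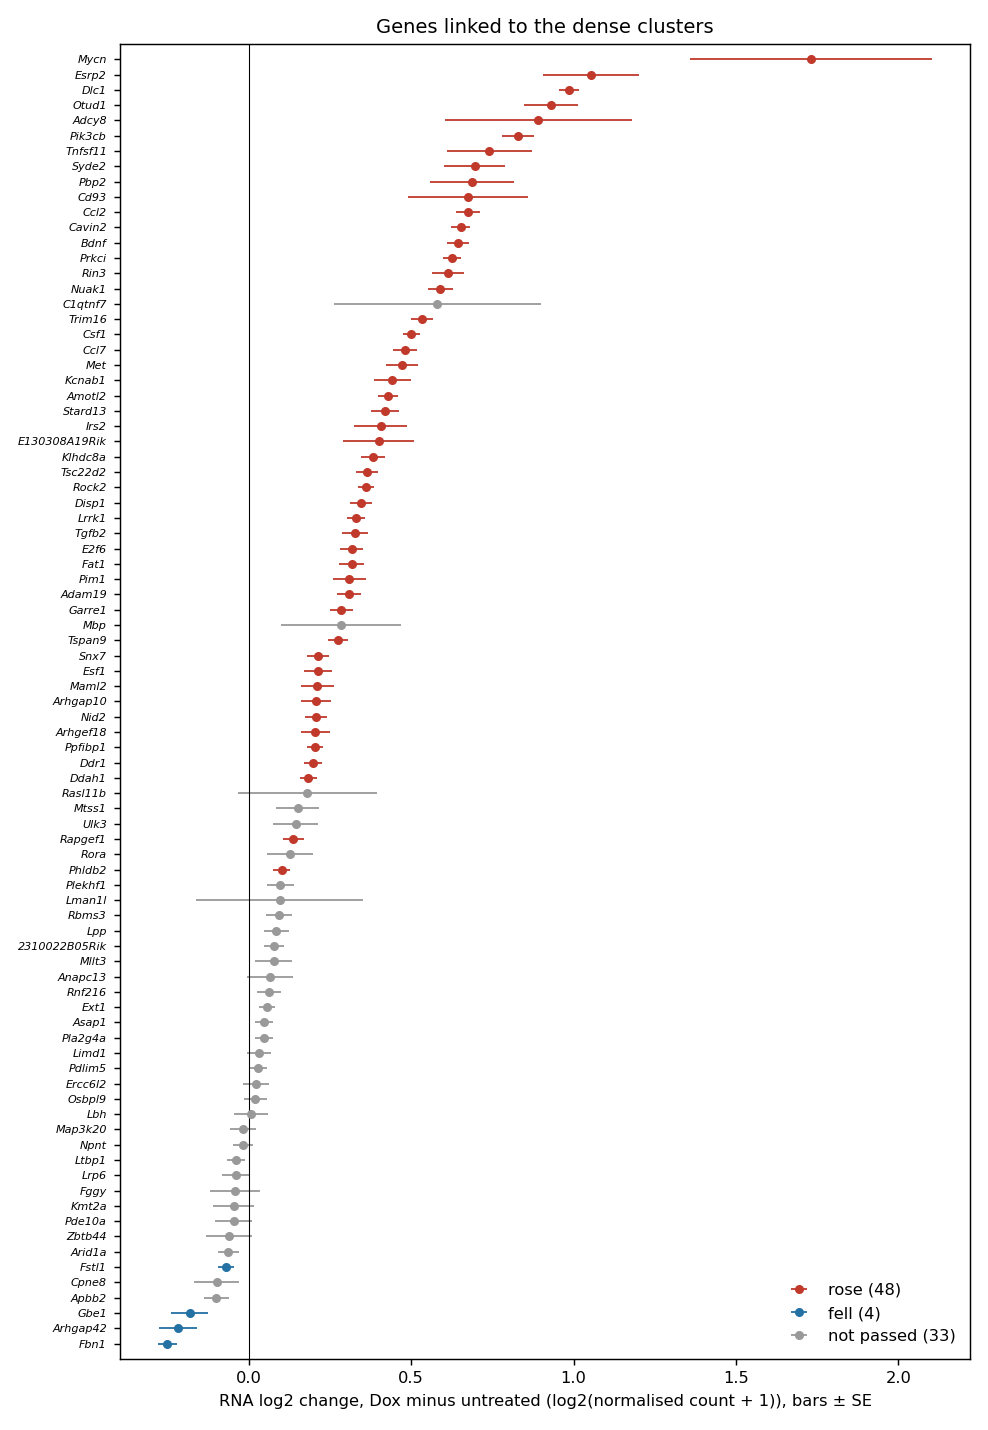
RNA log2 change of the 85 tested linked genes, Dox minus untreated (x axis, log2(normalised count + 1), bars ± SE, 3 libraries per group), sorted, with genes that rose in red (48), fell in blue (4) and did not pass in grey (33). Most points lie to the right of 0.

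Linked genes were long and well expressed, and both properties move with the share called. Their median body was 93.3 kb against 24.3 kb for all tested coding genes, and their median level 1548 normalised read counts against 649.7 for the same coding genes. Among the 485 tested coding genes at or above both medians of the linked genes, 32.2% rose and 18.8% fell. The part of length and level in the linked genes' share was not tested further. Both kinds of link gave more rises than falls. Genes overlapped by a cluster rose in 32 and fell in 4 of 61 cases, and nearest genes rose in 16 and fell in 0 of 24. Where a start in the promoter table lay inside the span, 9 of 13 tested genes rose and 1 fell, although that table lacks starts of some genes.

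The share of risen genes was higher for larger groups of moderate sites. Of the tested genes linked to single sites 20.4% rose and 14.8% fell, for groups of 2 sites 27.2% and 13.6%, for groups of 3 sites 34.2% and 10.6%, for groups of 4 sites 36.5% and 10.0%, and for the clusters 56.5% and 4.71%. A gene can stand in several of these sets, which are therefore not independent. The median gene length also moved with group size, from 52.3 kb at single sites to 81.8 kb, 93.2 kb, 93.3 kb and 93.3 kb, and the median level from 768 to 903, 952, 1331 and 1548 normalised read counts, and their part in the order was not tested. Genes linked to lost sites had the opposite balance, 14.1% rose and 23.1% fell. Within the clusters, the number of sites bore little relation to the size of the RNA change. Genes with 5 member sites had a median log2 change of 0.18, with 6 or 7 sites 0.42 and with 8 or more 0.19. Across 89 pairs of cluster and gene, Spearman's rank correlation with the RNA change was 0.131 for the number of sites and 0.213 for the cluster's median difference, as a description of pairs that can share a gene.

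**Figure D4:**
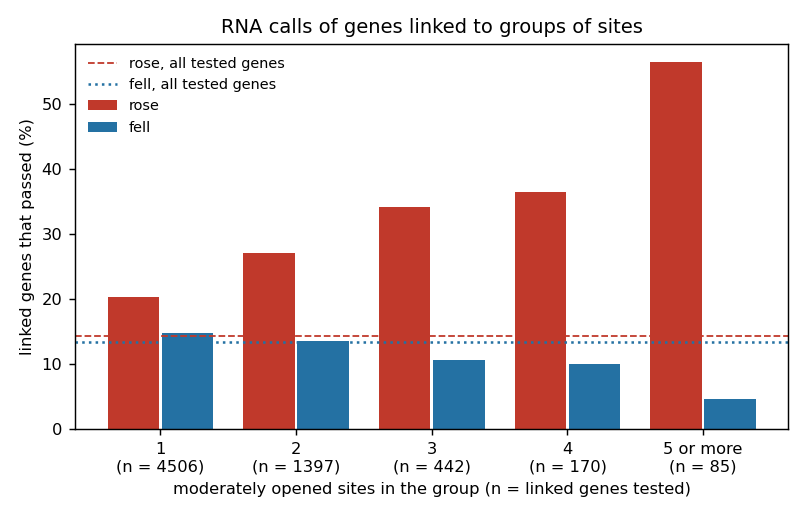
Share of linked genes that rose (red) or fell (blue) in RNA, in percent (y axis), by number of moderate sites in the group (x axis, n = genes tested). Dashed and dotted lines give the shares over all tested genes, 14.3% and 13.5%; the red bars go from 20.4% to 56.5%.

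Among linked genes with 100 or more normalised read counts on average, Dlc1 had the largest rise. Dlc1, which encodes a GTPase-activating protein known as a tumour suppressor, held 2 clusters with 12 member sites inside its body, at chr8:36639700-36669071 and chr8:36815951-36833709, and its sites gained between 0.38 and 0.95 in log2 concentration. Its RNA stood at 3882, 3996 and 3667 normalised read counts in untreated libraries and at 7535, 7694 and 7622 with Dox. Every treated library was thus far above every untreated one. The log2 change was 0.99 ± 0.032 (SE, n = 3 per group; limma, Benjamini-Hochberg adjusted p = 1.31e-11). Syde2, another predicted GTPase-activating protein, stood at 270.3, 305 and 238 without Dox and at 477, 447 and 392.4 with Dox, a log2 change of 0.70 ± 0.093 (limma, adjusted p = 3.57e-05). Further genes below that level also rose and were named after their values were seen. The splicing factor gene Esrp2 had a log2 change of 1.05 ± 0.15 (limma, adjusted p = 5.65e-05). The adenylyl cyclase gene Adcy8 had one of 0.89 ± 0.29 (limma, adjusted p = 0.0301), at a mean of only 18.7 normalised read counts. The membrane receptor gene Cd93 had one of 0.67 ± 0.18 (limma, adjusted p = 0.0119), at a mean of 52.6.

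Pik3cb, which encodes the beta catalytic subunit of PI3 kinase, had 6 member sites at chr9:99117424-99144842, across its start, with a median difference of 0.90, the highest of the 111 clusters. Its RNA went from 573, 609 and 569.9 normalised read counts to 1019.8, 1015 and 1083. The groups lay far apart, at a log2 change of 0.83 ± 0.049 (limma, adjusted p = 5.73e-09). Prkci, an atypical protein kinase C of cell polarity, was at 2939, 2922 and 2899 without Dox and at 4588, 4448 and 4473 with Dox, a log2 change of 0.62 ± 0.028 (limma, adjusted p = 2.35e-10). Otud1, a deubiquitinase gene that lies 2.95 kb from a cluster of 5 sites, went from 169.5, 158 and 166 to 333, 313 and 298, a log2 change of 0.93 ± 0.084 (limma, adjusted p = 4.78e-07).

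Bdnf, a neurotrophin, held 6 member sites inside its body and stood at 1559.5, 1512 and 1566 normalised read counts in untreated libraries and at 2402, 2469 and 2379 with Dox. The 3 treated libraries lay close together and all above the untreated ones, with a log2 change of 0.64 ± 0.034 (limma, adjusted p = 1.42e-09). Ccl2, a chemokine that attracts monocytes, had libraries at 2147, 2198 and 2208 without Dox and 3276, 3556 and 3633 with Dox, a log2 change of 0.67 ± 0.037 (limma, adjusted p = 2.45e-09). Its 6-site cluster at chr11:82011522-82047252 also covers the related gene Ccl7, at 0.48. Tnfsf11 encodes RANKL, the ligand that drives osteoclast formation, and the nearest of its 7 sites lay 60.9 kb from the gene. It stood at 123, 94.4 and 84.4 without Dox and 162, 171 and 168 with Dox, so that the untreated libraries were spread widely and the treated ones not, with a log2 change of 0.74 ± 0.13 (limma, adjusted p = 0.000498). Csf1, the cytokine that sustains macrophages and their precursors, named here after its values were seen, went from a mean of 77242 ± 2353 to 109209 ± 787 (SD, n = 3), a log2 change of 0.50.

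Cavin2, listed as Sdpr, encodes a coat protein of caveolae and lies 18.3 kb from a cluster of 5 sites packed into 5837 bp, whose differences were 0.33 to 0.86. It went from 6759, 6671 and 7163 normalised read counts to 10596, 10834 and 10917, without overlap, at a log2 change of 0.65 ± 0.029 (limma, adjusted p = 2.35e-10). Pbp2, at 0.69 ± 0.13, is a close copy of Pebp1 in mouse, so that its reads may be split between both genes. The largest change of all tested linked genes was that of Mycn, a transcription factor of growth named here after its values were seen. Mycn went from a low untreated mean of 4.96 ± 1.91 to a Dox mean of 18.2 ± 3.31 normalised read counts (SD, n = 3). The rise on the log2 scale was 1.73 ± 0.37 (limma, adjusted p = 0.00232). Its mean over both groups was 11.6, while its untreated mean lay below the filter on average counts. Mycn was thus tested only because of its level with Dox, and its rank rests on low counts.

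**Figure D5:**
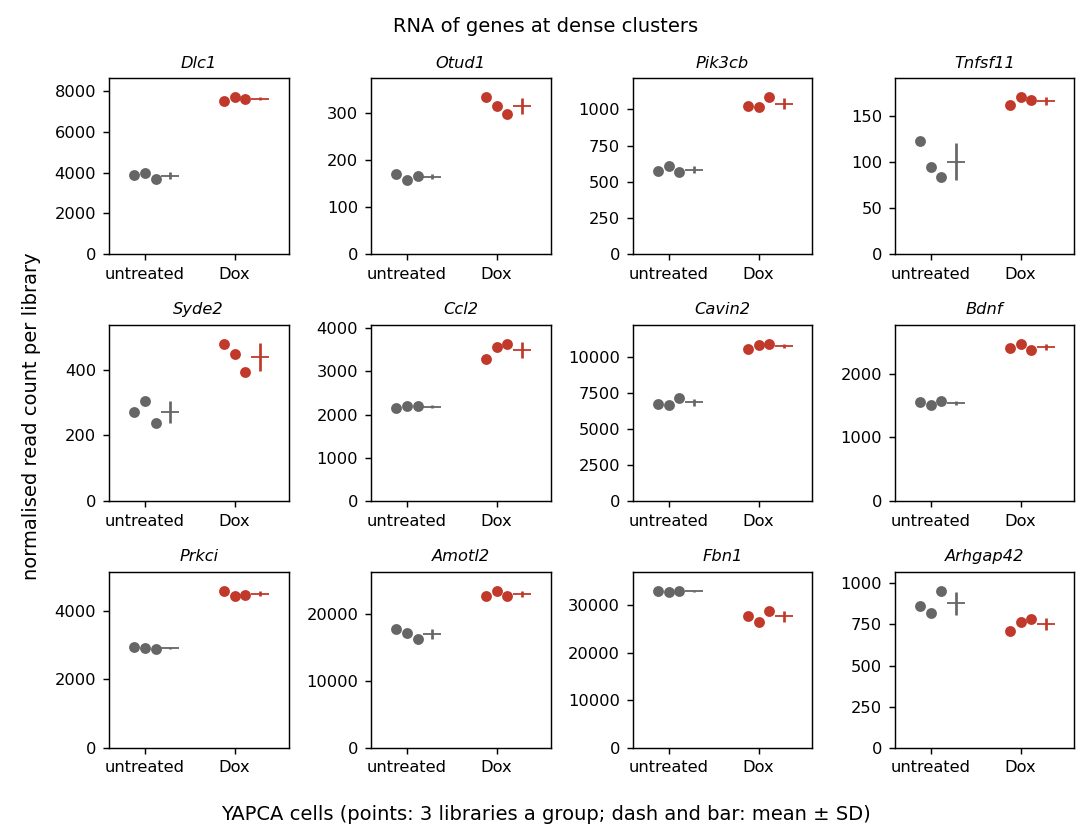
Normalised read counts (y axis, linear, from 0) of 12 linked genes in the 3 untreated (grey) and 3 Dox (red) YAPCA libraries (x axis), with mean ± SD beside the points. For 10 of the genes the treated libraries lie above the untreated ones, and for Fbn1 and Arhgap42 below.

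The 4 genes that fell did so by small amounts. Fbn1, which encodes the microfibril protein fibrillin-1, held 5 member sites in its body at chr2:125471769-125495378 and went from 33019.8, 32798 and 32885 normalised read counts to 27780.2, 26426 and 28786. Its groups did not overlap, and the log2 change was -0.25 ± 0.029 (limma, adjusted p = 6.44e-06). Arhgap42, a GTPase-activating protein of smooth muscle, had a log2 change of -0.22 ± 0.058 (limma, adjusted p = 0.00991), and its adjusted p was 0.0610 without Dox replicate 1. Gbe1, the glycogen branching enzyme, had a change of -0.18 ± 0.058 (limma, adjusted p = 0.0267), with adjusted p between 0.0544 and 0.132 after the omission of any 1 library other than untreated replicate 3, 0.0785 in DESeq2 on recovered reads and 0.108 in the authors' deposited table. Fstl1, a secreted follistatin-like protein, had a change of -0.07 ± 0.026 (limma, adjusted p = 0.0485), with adjusted p between 0.0811 and 0.212 after the omission of any 1 library other than Dox replicate 3. Among the falls, Fbn1 alone passed with each of the 6 libraries left out.

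The clusters with the most sites were not those with the strongest RNA changes. The 9-site cluster at chr3:58306241-58342457 lies 72.2 kb from Tsc22d2, of the TSC22 leucine zipper family, and its sites had untreated log2 concentrations of 5.68 to 8.99 and differences of 0.34 to 0.98. Tsc22d2 went from 2226, 2084 and 2129 to 2719, 2728 and 2837 normalised read counts, a log2 change of 0.36 ± 0.035 (limma, adjusted p = 8.87e-07). Clusters of 8 sites numbered 7, and 5 with the shorter spans are named here with their genes. None of their tested genes passed. Rnf216, a ubiquitin ligase, had a log2 change of 0.06, Map3k20, a stress-activated kinase listed as Zak, -0.02, Apbb2, an adaptor of the amyloid precursor protein, -0.10 (limma, adjusted p = 0.0574, and 0.0417 without Dox replicate 2), and Mbp, the myelin basic protein, 0.28 at a mean of 42.0 normalised read counts without Dox. The cluster at chr13:110902657-110929224 had no gene within 100 kb. Of the other two, Ltbp1, a latent TGF-beta binding protein, had a change of -0.04 and did not pass, and the last had no gene within 100 kb.

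The 4 densest of the remaining clusters were those at E130308A19Rik, with 6 sites in 4821 bp, Rin3, Cavin2 and 3110040M04Rik. Rin3, a Ras interactor and exchange factor for Rab5, went from 582, 599.9 and 567 normalised read counts to 889, 924 and 862. The groups were well apart, with a log2 change of 0.61 ± 0.050 (limma, adjusted p = 1.41e-07). E130308A19Rik had a log2 change of 0.40 ± 0.11 (limma, adjusted p = 0.0122), with an adjusted p of 0.0645 without untreated replicate 1 and 0.0561 without untreated replicate 2. RNA of 3110040M04Rik was too low to be tested.

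Around Amotl2, 3 clusters followed each other over 137.83 kb at chr9:102631782-102769611. All 32 listed sites of the stretch were gains, of 0.29 to 1.52 on the log2 scale, namely 20 members, 4 sites above 1, 7 of higher concentration and 1 other moderate site. The members and the other moderate site are gains by the rule, and 87.1% of all listed autosomal sites are gains. The count is thus a description only. Amotl2 encodes an angiomotin that holds YAP at cell junctions and is itself a YAP target, and 13 members were linked to it. Its RNA stood at 17741, 17209.7 and 16279.9 normalised read counts in untreated libraries and at 22722, 23495 and 22679 with Dox. The groups did not overlap, at a log2 change of 0.43 ± 0.030 (limma, adjusted p = 2.96e-08). Anapc13, a subunit of the anaphase-promoting complex at the first of the 3 clusters, moved from 353 ± 10.7 to 369.6 ± 26.1 normalised read counts (SD, n = 3) and did not pass.

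Members of a list of YAP/TEAD targets stood at several of the clusters. Of 25 tested targets, 16 rose, 1 fell and 8 missed the threshold, with a median log2 change of 0.33. Over all tested genes 14.3% rose and 13.5% fell, which are also the shares to set beside the actin and Hippo counts below. Of the 25, 4 were linked to a cluster, or 16.0%, where 0.631% of all tested genes were. Besides Amotl2, the growth factor gene Tgfb2 rose, from 1309, 1309.9 and 1328 normalised read counts to 1563, 1698 and 1696, at 0.33 ± 0.040 (limma, adjusted p = 1.46e-05), and its cluster of 5 sites lay 36.7 kb away. Asap1, an Arf GTPase-activating protein, and Rbms3, an RNA-binding protein, had changes of 0.05 and 0.09 and did not pass, although Rbms3 had an adjusted p of 0.0451 without Dox replicate 1. Of 39 tested actin and adhesion genes, 14 rose, 9 fell and the other 16 missed the threshold. Of the 39, 3 were linked. Rock2, a kinase of actomyosin contraction, rose from 12466, 12075 and 12148 to 15773, 15438 and 15881, at 0.36 ± 0.025 (limma, adjusted p = 2.24e-08). Lpp and Pdlim5, both LIM proteins of adhesions and stress fibres, had changes of 0.08 and 0.03 and did not pass, although Lpp had an adjusted p of 0.00536 without untreated replicate 3. Of 21 Hippo pathway components 12 rose and 1 fell, and Amotl2 alone was linked.

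Of the tested AP-1 factors, periosteal and skeletal progenitor genes, osteoblast genes and genes of receptor tyrosine kinase feedback, 3 of 12, 2 of 17, 0 of 13 and 8 of 16 rose, and 4, 7, 6 and 3 fell. Over all tested genes 14.3% rose and 13.5% fell, and the lists were not tested against these shares. None of the listed genes was linked to a cluster, which at a share of 0.631% over all genes says nothing about these short lists.

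For the 14 clusters with no gene within 100 kb, the nearest genes further out were read in the same way, as a description. Over all tested genes 14.3% rose and 13.5% fell, so that the absence of falls among a few genes carries no information. The nearest genes were 13, of which 7 were tested, and 4 rose and 0 fell. Among them was Ccn2, listed as Ctgf, a matrix-associated signalling protein and YAP target, at 115.9 kb from 7 sites at chr10:24445029-24479554 that gained 0.39 to 0.89. Its libraries stood at 41523, 41901 and 33646 normalised read counts in untreated libraries and at 69993, 68745 and 62697 with Dox, a log2 change of 0.79 ± 0.062 (limma, adjusted p = 9.98e-08). Phactr1, a regulator of actin and phosphatase activity, Phlda1, and Marcks, an actin-binding kinase substrate, had changes of 0.48, 0.33 and 0.17. Phlda1 lost its call in DESeq2 on recovered reads, at an adjusted p of 0.0573, and also in the authors' deposited DESeq2 values.

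The YAPCA RNA libraries held 16351891 to 28734643 reads. All 8 periosteal and mesenchymal markers fell with Dox, where 13.5% of all tested genes fell. Their summed level was 560352 to 581881 normalised read counts without and 445985 to 457217 with Dox, so the cells carried the labelled mesenchymal markers in both groups. Summed endothelial markers were at 60.5 to 86.1 and 79.8 to 118, macrophage markers at 221 to 277 and 244 to 252, epithelial markers at 10.4 to 16.9 and 4.50 to 5.99, and muscle markers at 1030.1 to 1188 and 965 to 1039. Of these, 3 of 5 endothelial, 2 of 5 macrophage, 0 of 4 epithelial and 1 of 4 muscle markers passed the filter on average counts. The muscle sum thus rests mostly on 1 gene. In bulk samples fewer cells of a type and less RNA per cell cannot be told apart, and the part of these shifts in the linked genes' changes was not tested.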

How the data were processed

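RNA-seq and ATAC-seq covered 24 samples in 8 groups of 3. Build mm10 and the tools Bowtie2, SAMtools, MACS2, bedtools, DiffBind and HOMER, next to HISAT2, Picard, featureCounts and DESeq2, are named in the submitters' processing notes, without versions or settings. Any transposase shift and the pooling of samples in peak calling were not given in the sources used here.

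Deposited ATAC-seq values are log2 concentrations per group and site, with log2 folds, p-values and FDR from DiffBind per the file headers. No sample values are given, so their spread and depth are unknown. Only sites with an FDR of at most 0.05 are listed. The heading of the 2 groups is exchanged in a second sheet for chromosome 3, for 1932 of 1932 sites, and the main sheet was used. Wild-type sites are deposited as other, joined text fields, whose order was taken from the YAPCA sheet. The deposited RNA signal is a read count that was normalised by the authors with 1 factor per library, and 100% of values came out as whole reads at a tolerance of 0.01 read. The recovered reads set the precision. Columns of values without a sample numbered 0.

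RNA was tested on log2(normalised count + 1) with limma 3.58.1 in R 4.3.3 (two-sided, with an intensity trend and a Benjamini-Hochberg adjusted p below 0.05) over 13477 genes with a mean of at least 10. This scale understates changes of low genes. The fit was tested on simulated data. edgeR 4.0.16 and DESeq2 1.42.0 on recovered reads were alternatives. Reads of replicates differed by more than sampling noise (chi-square per degree of freedom 1.76 to 3.19). Genes, RefSeq names and promoters come from GRCm38.p6, and clusters were joined with Python 3.11.15. Coordinates count from 1. Protein-coding genes were chosen for linking after the files were seen.

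Regions named are the 6 clusters with most sites (the shorter span first in ties), the 4 with most sites per kb among the rest and those linked to YAP/TEAD targets. Genes named are the tested genes of those clusters, up to 10 rises and 10 falls with 100 or more counts on average and groups apart, and listed genes that are linked. The members and lists were chosen with earlier results of these data known. The planned search for motifs in member sites was not run, since no genome sequence was used here.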

Additional observations from a re-analysis of the deposited data

How the results depend on the processing

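The counts of members follow the rule's settings, and under each of them more linked genes rose than fell. Joining gaps of at most 5 kb gave 97 sites in 18 clusters, with 10 genes risen and 0 fallen, and 25 kb gave 2166 sites in 359 clusters, with 136 and 27. Groups of 4 or more sites gave 1501 in 332 clusters (105 and 20), and of 6 or more 242 in 36 (18 and 1). A concentration below 9 gave 370 sites in 70 clusters with 28 risen genes, one below 10 gave 7 fallen genes, and no limit gave 1224 in 206 (85 and 12). A difference of at most 0.75 gave 280 sites in 50 clusters with 22 risen genes, and no upper limit 993 in 174 with 7 fallen. An FDR below 0.01 gave 219 sites in 40 clusters (19 and 1), and below 0.001 57 sites in 11 (7 and 0). The share of risen genes moved as well, from 42.1% with gaps of at most 25 kb to 87.5% of 8 genes at an FDR below 0.001. It was 56.5% in the main setting, and the reason for these shifts was not tested.

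At an adjusted p below 0.01, 2 linked genes fell, and over all genes 1232 rose and 1116 fell. Leaving out 1 library at a time gave 46 to 48 risen and 1 to 3 fallen linked genes, and 1482 to 1808 risen and 1394 to 1774 fallen genes in all. Other ways of linking, pseudocounts, filters, scalings and tools kept each count within 1.5 times, where linking by gene start used a promoter table that lacks starts of some genes. Linking coding and long non-coding genes (39 risen, 4 fallen) and using differences without rounding (617 sites) were chosen after seeing the data. Of 543 values for 34 genes, 515 kept their call, 22 lost it, 6 gained it and none reversed. These were the genes picked by the naming rule and the tested nearest genes of clusters without a gene within 100 kb. Mycn, Esrp2, Adcy8, Cd93, Csf1, Ccl7, Anapc13 and Ltbp1 were not among them.

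Correlations between same-numbered libraries were -0.0007, 0.036 and 0.085, which does not settle whether replicate numbers pair the samples. With the replicate block 52 linked genes rose and 5 fell, against 48 and 4 in the main setting. RNA depth limits low genes, and the ATAC-seq values have no replicate spread. The planned motif shares of member sites were not run.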
